A study of Homo sapiens with 17 samples.

Results

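The comparison described here sets wild-type LKB1 against its kinase-dead form K78I in H2122, a human lung adenocarcinoma cell line that lacks functional LKB1. It rests on 6 of the 17 arrays of the series, 3 titled as H2122 with LKB1 and 3 titled as H2122 with the kinase-dead mutant, chosen by title alone. The cells of all 6 arrays carried a pBABE retrovirus with an LKB1 insert, had been held in puromycin at 1.0 micrograms per mL for 2 weeks and were grown in 5% serum. The control H2122 cells with empty pBABE (2 arrays) are shown beside them as levels, and the same contrast in a second adenocarcinoma line, A549 (3 LKB1 and 3 K78I arrays), was used to ask where the lines differ. Total RNA (130 ng) was read on 1 Affymetrix array per sample, and each value is a log2 level, so that a difference of 1 is a 2-fold difference. The labels do not say whether the cells were pools or single clones, or whether replicates came from separate cultures. The p-values below therefore measure the spread between these arrays, which may be technical, and with 3 arrays a group their precision is limited.

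LKB1 is a serine/threonine kinase encoded by STK11 and a tumour suppressor often lost in lung adenocarcinoma. It works in a complex with the pseudokinase STRAD and the scaffold MO25 and phosphorylates the activation loop of AMPK and of the AMPK-related kinases, among them the SIK, MARK and NUAK families. SIK kinases hold the CREB coactivators CRTC in the cytoplasm, and LKB1 loss is known for raised CREB and CRTC target genes. In the K78I mutant the lysine that contacts ATP is replaced, so the protein can be made without catalysis. A contrast of the wild-type form with K78I asks what the kinase activity adds at a like amount of transcript, whereas the empty vector also lacks the protein.

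STK11 (transcript cluster 8024204) was as abundant with the mutant as with the wild type. The log2 levels were 11.20, 11.35 and 11.26 on the LKB1 arrays and 11.27, 11.31 and 11.26 on the K78I arrays. The groups overlapped, and the difference was -0.01 ± 0.09 (SE), with p = 0.8 in an exact two-sided permutation test whose smallest possible p is 0.1. The empty-vector arrays stood at 6.33 and 6.22. Protein was not measured, so equal transcript does not show equal protein or kinase activity.

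Titles and source names disagreed for 3 H2122 arrays. The source name of LKB1 replicate 3 gives K78I, that of K78I replicate 3 gives empty vector, and that of pBABE replicate 2 gives wild-type LKB1. STK11 on these arrays (11.26, 11.26 and 6.22) was at the level of the title's group for K78I replicate 3 and pBABE replicate 2, and against their source names. For LKB1 replicate 3 it cannot tell LKB1 from K78I. The transduction field of the labels gives the same construct as the title for every array, and the titles were used throughout. Between replicates the SD of the difference over all genes was 0.226 to 0.322 for LKB1, 0.239 to 0.299 for K78I and 0.52 for the pBABE pair. EPCAM, the epithelial adhesion molecule, lay between 11.13 and 11.45, and PTPRC, the leukocyte antigen CD45, between 2.86 and 3.24. Of the marker lists for other cell types, 0 of 10 fibroblast, 0 of 6 endothelial and 0 of 7 neuroendocrine genes passed the test of LKB1 against K78I, and 1 fibroblast gene passed in the fit without K78I replicate 1. Of 11 leukocyte markers 1 passed (9.1%, beside 9.22% of all genes tested), CSF1R (0.51 ± 0.13). Its call was lost in each of the 6 fits that left out 1 array (adjusted p up to 0.154 in limma, without K78I replicate 3).

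Wild-type LKB1 differed from K78I in 1655 of 17958 genes tested (9.22%) by limma with Benjamini-Hochberg adjustment at 0.05. Of these, 983 were higher with LKB1 (5.47% of the genes tested) and 672 were lower (3.74%). In RNA from whole cultures a gene raised in every cell and one raised in some cells cannot be told apart. Differences of at least 2-fold were found in 295 higher and 53 lower genes, while the median over all genes was -0.02. Every LKB1 array lay beyond every K78I array in 5560 genes (31.0%), and all 1655 called genes were among them. The number of calls fell when 1 array was left out, which also leaves fewer residual degrees of freedom. It was 512 without K78I replicate 3, 606 without LKB1 replicate 3, 911 without LKB1 replicate 1, 944 without K78I replicate 2, 1080 without LKB1 replicate 2 and 1514 without K78I replicate 1. The split between directions moved too, from 62.7% higher without K78I replicate 1 to 81.8% without K78I replicate 3 (419 higher and 93 lower), beside 59.4% with all 6 arrays and 52.4% with a trended robust prior (1223 higher and 1109 lower). All 1655 genes kept their direction in these 6 fits. That was fixed in advance, since their LKB1 and K78I arrays did not overlap. The call was kept in each of the 6 fits by 459 genes (378 higher and 81 lower). Without the 2 arrays whose source name gives another construct, 69 genes were called, 66 higher and 3 lower. That fit holds 2 arrays a group. Its differences had a median ratio of 0.953 to those of the main fit over the 1655 genes. In 1646 of these the ratio was within a factor of 3/2. Its arrays are part of the 6, so the differences of both fits are not independent. With groups taken from the source name 0 genes were called. In the plot of difference against adjusted p the right arm reaches further than the left.

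**Figure D1:**
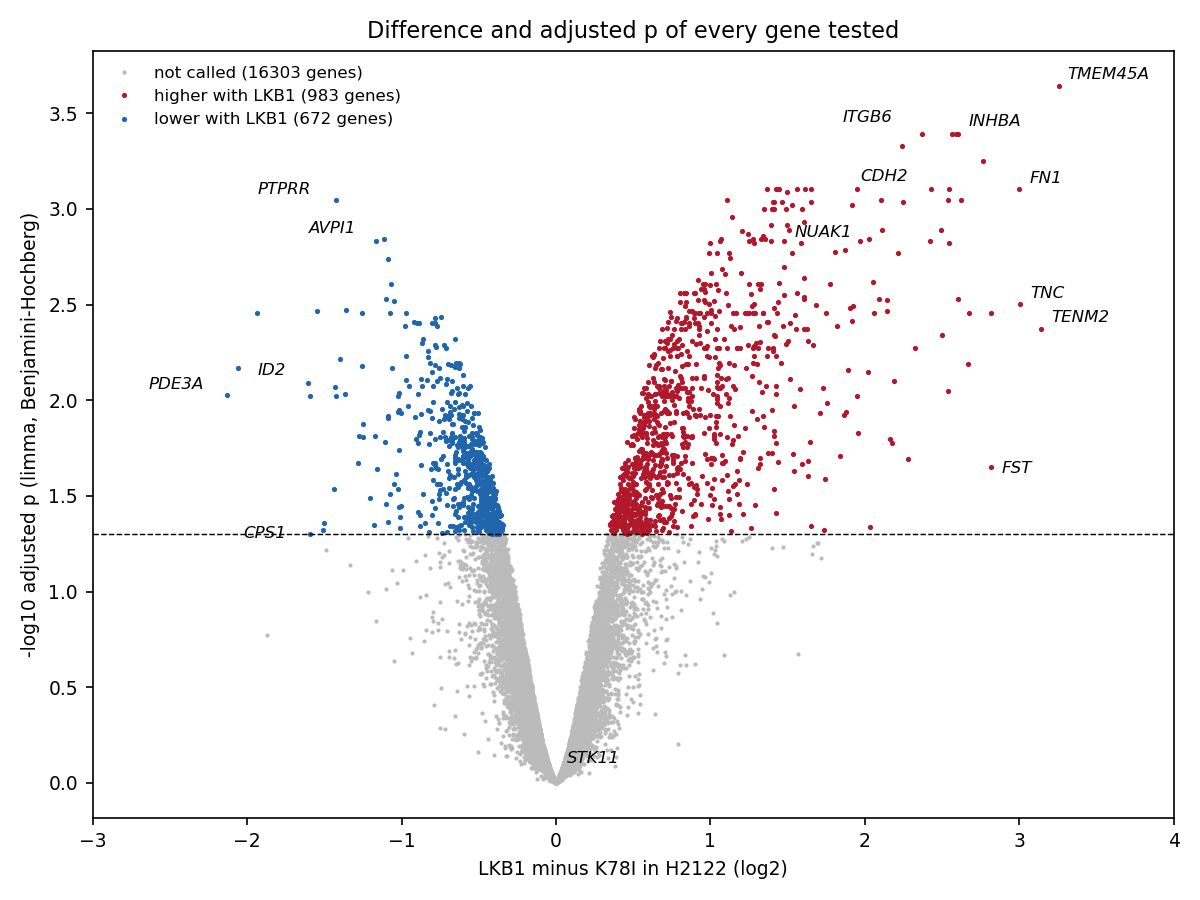
Difference between wild-type LKB1 and K78I in H2122 (x axis, log2) against the -log10 of limma's adjusted p (y axis) for 17958 genes; the dashed line is an adjusted p of 0.05, red points are the 983 genes called higher with LKB1 and blue points the 672 called lower. The points reach 3.26 on the right (TMEM45A) and -2.13 on the left (PDE3A), and STK11 lies at the foot of the plot near 0.

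Of the 3 genes used to mark this contrast, TMEM45A and FN1 were among its 15 largest rises, and CDH2 rose as well. TMEM45A, a transmembrane protein of uncertain function (transcript cluster 8081288), stood at 8.28, 8.02 and 8.55 with LKB1 and at 5.22, 4.86 and 4.98 with K78I. The difference of 3.26 ± 0.15 (SE) is 9.57-fold (limma adjusted p = 0.000227). Fibronectin, FN1, the matrix protein that binds integrins, was at 11.15, 10.98 and 11.20 against 8.71, 7.72 and 7.90, a difference of 3.0 ± 0.23 (limma adjusted p = 0.000788). N-cadherin, CDH2, the cadherin of mesenchymal and neural cells, was at 8.05, 8.46 and 8.45 against 6.04, 6.13 and 5.50, a difference of 2.43 ± 0.18 (limma adjusted p = 0.000788). None of the 3 overlapped between the groups, which held for 31.0% of all genes tested and for all 1655 called genes. All 3 kept their calls with any 1 of the 6 arrays left out, as did 459 of the 1655 in all. The 3 were proposed as markers of this same contrast, so these values only describe it. With empty vector the levels of TMEM45A were 4.89 and 4.72, those of CDH2 5.29 and 4.49 and those of FN1 7.44 and 5.21. The FN1 and CDH2 levels of the pBABE arrays thus spread more widely than those of K78I, and pBABE replicate 2 was the lower of the pair in all 3 genes.

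**Figure D2:**
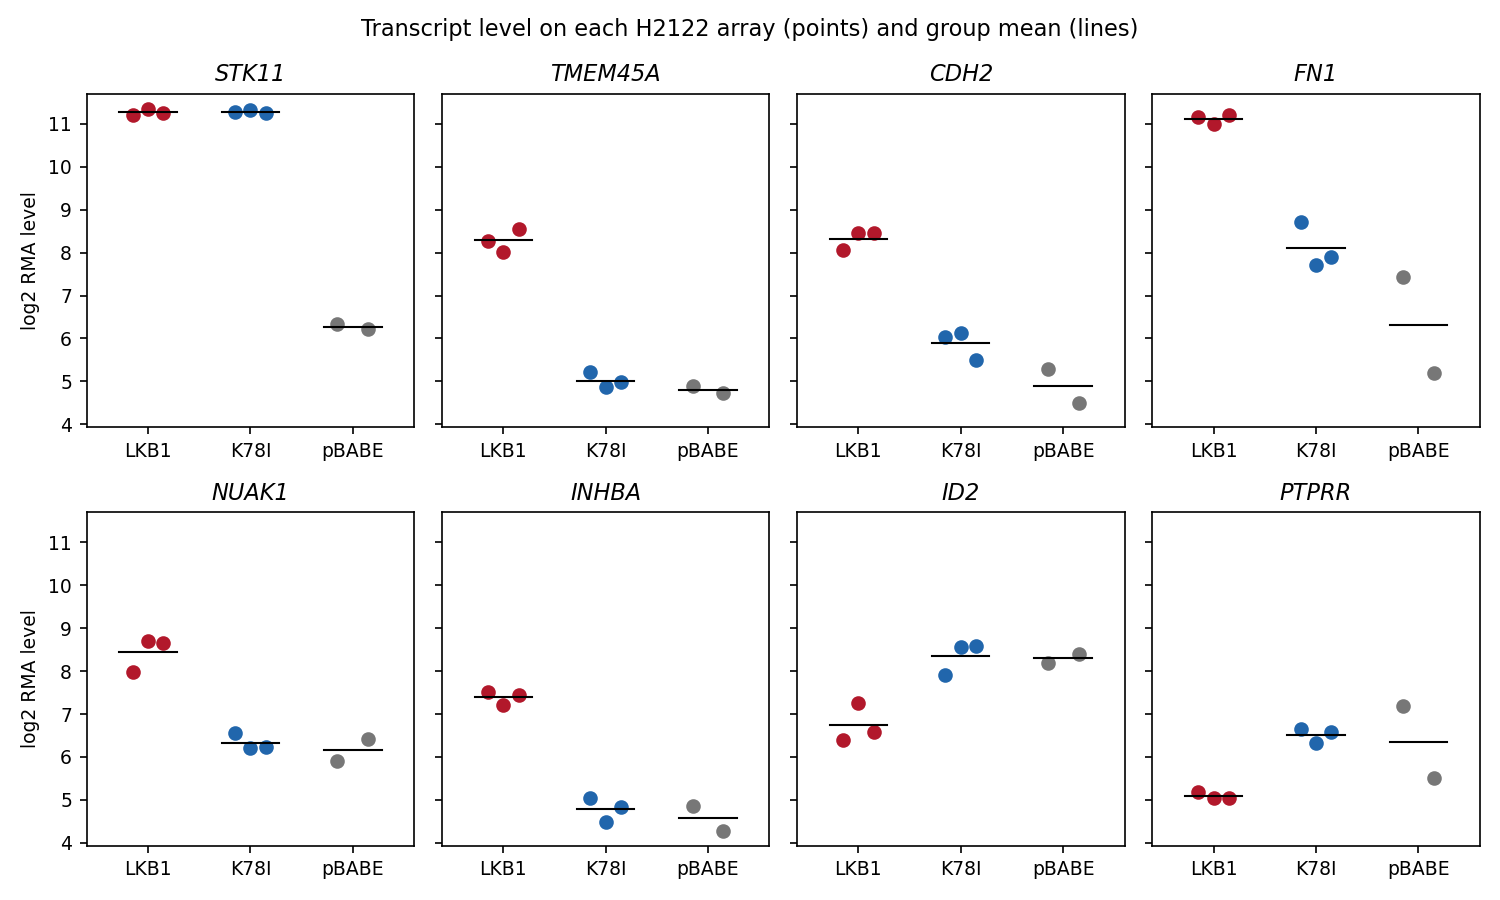
Log2 RMA level (y axis) of STK11, the 3 marker genes and 4 further genes on each of the 8 H2122 arrays (points), by construct, with group means as lines; all panels share 1 axis. STK11 is level between LKB1 and K78I near 11.3, TMEM45A, CDH2, FN1, NUAK1 and INHBA are higher on every LKB1 array than on any K78I array, and ID2 and PTPRR are lower.

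The other 13 of the 15 largest rises held several genes of the matrix and its turnover. TENM2, a teneurin of synaptic adhesion, was 3.14 ± 0.42 higher and TNC, the matrix glycoprotein tenascin C, 3.01 ± 0.36 higher. SPOCK1, a matrix proteoglycan (2.62 ± 0.22), MMP7, the secreted protease matrilysin (2.68 ± 0.33), and ADAM19, a membrane metalloprotease (2.60 ± 0.30), also rose. Receptors and membrane proteins included ROS1, an orphan receptor tyrosine kinase (2.54 ± 0.25), the tetraspanin TSPAN2 (2.59 ± 0.16), the leucine-rich repeat protein LRRN1 (2.81 ± 0.35) and LAPTM5, a lysosomal protein best known from leukocytes (2.67 ± 0.40). FBXO32, the ubiquitin ligase subunit atrogin-1, rose by 2.77 ± 0.19 and PPP4R4, a phosphatase regulatory subunit, by 2.57 ± 0.15. The activin subunit INHBA rose by 2.60 ± 0.16 and follistatin, FST, the secreted activin antagonist, by 2.82 ± 0.58. Of the 15, FST was the only one to lose its call in a fit that left out 1 array. Its levels were 10.23, 8.60 and 10.75 against 8.06, 6.25 and 6.83, and limma's adjusted p of 0.0223 became 0.0957 without K78I replicate 3, 0.0729 without LKB1 replicate 3, 0.0685 without LKB1 replicate 1 and 0.0664 without K78I replicate 2. TNC showed the same order of arrays, with 8.76 on K78I replicate 1 beside 7.21 and 7.43 on the other K78I arrays. LAPTM5 was also highest on K78I replicate 1 among the K78I arrays, at 8.07 beside 6.21 and 6.68, while its LKB1 arrays were even. Over the 983 called higher genes K78I replicate 1 was the highest of the 3 K78I arrays in 55.8%, against 41.0% of all 17958 genes.

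The 15 largest falls were smaller, between -2.13 and -1.37. PDE3A, the cAMP and cGMP phosphodiesterase, stood at 5.86, 7.35 and 6.15 with LKB1 and at 8.22, 8.78 and 8.75 with K78I, a difference of -2.13 ± 0.35 (limma adjusted p = 0.00941). CHRNA9, a nicotinic receptor subunit, fell by 2.06 ± 0.31, the tetraspanin TSPAN8 by 1.93 ± 0.24 and ID2, an inhibitor of helix-loop-helix factors, by 1.61 ± 0.25. CD36, a fatty acid transporter (-1.55 ± 0.19), SMOC1, a secreted BMP modulator (-1.43 ± 0.23), B4GALNT3, a glycosyltransferase (-1.42 ± 0.23), and the small secreted mucin-like protein MUCL1 (-1.37 ± 0.22) followed. PTPRR, a phosphatase that acts on MAP kinases, had the most even values, at 5.20, 5.04 and 5.06 against 6.66, 6.32 and 6.57 (-1.42 ± 0.12, limma adjusted p = 0.000897). PPP1R3C, which targets a phosphatase to glycogen, fell by 1.40 ± 0.20. On LKB1 replicate 2 the levels of PDE3A, CHRNA9, TSPAN8 and ID2 lay closest to those of K78I, at 7.35, 4.84, 6.43 and 7.27. Over the 672 called lower genes another array was most often the closest. LKB1 replicate 3 was the highest LKB1 array in 331 of them, replicate 2 in 193 and replicate 1 in 148.

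Of the 15 falls 9 kept their calls in all 6 fits that left out 1 array, and of the 15 rises 14 did. PDE3A and the lipase LIPK (-1.59 ± 0.26) lost theirs without K78I replicate 3 alone, at limma adjusted p of 0.0506 and 0.0513. CPS1, the mitochondrial carbamoyl phosphate synthetase of the urea cycle, was at 8.69, 10.47 and 9.28 against 10.52, 11.25 and 11.46 (-1.60 ± 0.42, limma adjusted p = 0.0499). Together with the glycoprotein hormone STC1 (-1.51 ± 0.39), CPS1 was called only in the fit without LKB1 replicate 2, and without K78I replicate 3 the adjusted p rose to 0.181 for CPS1 and 0.152 for STC1. The membrane mucin MUC15 (-1.50 ± 0.38) lost its call without LKB1 replicate 1, LKB1 replicate 3, K78I replicate 2 or K78I replicate 3 (up to 0.163), and C9orf152 (-1.44 ± 0.32) in all but the fit without K78I replicate 1 (up to 0.0858).

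Genes of the extracellular matrix rose in 3 lists, and none of their measured members passed as lower. Of 30 matrix glycoproteins 12 were called higher and 0 lower, with a median difference of 0.33 beside -0.02 over all genes. Of 32 collagens and collagen-modifying enzymes 11 were higher and 0 lower (median 0.22), and of 9 laminins 3 were higher and 0 lower (median 0.08). Beside FN1, TNC and SPOCK1, IGFBP7, a secreted IGF-binding protein of the matrix, was at 10.50, 10.90 and 10.91 against 8.70, 8.10 and 7.90, a rise of 2.54 ± 0.21 (limma adjusted p = 0.000897). Thrombospondin 1, THBS1, rose by 1.55 ± 0.19, the proteoglycan versican, VCAN, by 1.52 ± 0.20, the matrilin MATN2 by 1.44 ± 0.17 and TGFBI, a TGF-beta-induced matrix protein, by 1.31 ± 0.17.

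Type IV collagen genes COL4A1 and COL4A2, which form the network of the basement membrane, rose by 1.49 ± 0.14 and 1.59 ± 0.14. Both genes were even across arrays, COL4A2 at 8.71, 8.89 and 8.75 against 7.45, 7.21 and 6.92. COL8A1 rose by 1.61 ± 0.21, and the enzymes that hydroxylate or cross-link collagen rose too: LOXL2 by 2.06 ± 0.22, P4HA2 by 1.00 ± 0.13 and PLOD2 by 0.78 ± 0.13. The laminin chains that rose were LAMB3 (1.11 ± 0.17), LAMB1 (0.72 ± 0.11) and LAMC1 (0.66 ± 0.10). The fibrillar collagen gene COL1A1 did not pass, at 6.84, 7.47 and 6.97 against 6.85, 7.16 and 7.16 (0.04 ± 0.17), and neither did the collagen-binding protein SPARC (-0.02 ± 0.12), whose levels of 3.72 to 4.09 were among the dim ones. Without K78I replicate 3, or without LKB1 replicate 3, the collagen count was 7 in place of 11, whereas the laminin count stayed at 3 in every fit that left out 1 array.

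Integrins, the receptors for these matrix proteins, showed the highest median of any list, 0.84, with 9 of 19 members higher and 0 lower. ITGB6, the beta subunit of the receptor that binds fibronectin and latent TGF-beta, was at 10.60, 10.71 and 10.71 against 8.61, 8.24 and 8.06 (2.37 ± 0.14, limma adjusted p = 0.000409). Its partner ITGAV rose by 1.27 ± 0.12 and ITGB3, another beta subunit that pairs with ITGAV, by 1.11 ± 0.09. ITGA2, of the collagen receptor, rose by 1.56 ± 0.18, ITGA5, of the fibronectin receptor, by 1.41 ± 0.20, and ITGA3 and ITGA6, of the laminin receptors, by 1.25 ± 0.14 and 1.05 ± 0.12. The common beta subunit ITGB1 rose by 0.84 ± 0.10. The count of higher integrins was 9 or 10 in each fit that left out 1 array.

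Mesenchymal and epithelial genes did not move as mirror images. Of 24 mesenchymal genes 12 were higher and 0 lower (median 0.61), and the count was 12 or 13 with any array left out; several of these are matrix and integrin genes named above. The actin-binding proteins TPM1 (1.44 ± 0.11) and CALD1 (1.03 ± 0.13) were among them, but vimentin was dim and did not pass (VIM, 0.28 ± 0.10, limma adjusted p = 0.118). Of 26 epithelial genes 2 were higher (7.7%, beside 5.47% of all genes) and 4 lower (15.4%, beside 3.74%), with a median of -0.04. The lower ones were the tight junction protein CLDN3 (-0.78 ± 0.16), the membrane mucin MUC1 (-0.76 ± 0.19), the splicing factor ESRP2 (-0.43 ± 0.09) and the small GTPase RAB25 (-0.42 ± 0.11). The higher ones were E-cadherin, CDH1, and the protease inhibitor SPINT2 (0.38 ± 0.10). Each of these 6 lost its call in at least 3 of the 6 fits that left out 1 array, and the count of 6 became 3 without K78I replicate 1, 2 without LKB1 replicate 2, 1 without LKB1 replicate 1 or K78I replicate 2, and 0 without K78I replicate 3 or LKB1 replicate 3. The keratins KRT8 (-0.17 ± 0.15) and KRT18 (0.03 ± 0.15) stayed above 11.2 on all 6 arrays and did not pass.

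The cadherins and transcription factors of epithelial-mesenchymal transition moved in both directions, with 5 of 21 higher and 3 lower. Alongside CDH2, P-cadherin (CDH3) rose by 1.23 ± 0.18 and E-cadherin was 0.44 ± 0.11 higher, at 10.85, 10.73 and 10.86 against 10.51, 10.43 and 10.19. CDH1 was thus the higher, not the lower, with wild-type LKB1, although its call held in 1 of the 6 fits, that without K78I replicate 1 (adjusted p up to 0.167, without K78I replicate 3). ZEB1, a repressor of epithelial genes, was at 5.08, 5.38 and 5.17 against 4.35, 4.50 and 4.62 (0.72 ± 0.12, limma adjusted p = 0.00951). SNAI1, another such repressor, moved the other way, at 5.10, 5.40 and 5.27 against 5.94, 5.93 and 6.29 (-0.79 ± 0.13, limma adjusted p = 0.0102). OVOL1, a factor that favours the epithelial state, fell by 0.64 ± 0.10. SNAI2 was 1.31 ± 0.27 higher, with 11.64, 11.45 and 11.63 against 10.93, 10.21 and 9.65, and its call was lost without LKB1 replicate 1 or 3 or K78I replicate 2 or 3 (adjusted p up to 0.076). The count of 8 became 5 without LKB1 replicate 1, LKB1 replicate 3 or K78I replicate 3.

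Matrix proteases and their inhibitors rose in 12 of 32 members, with 0 lower and a median of 0.32. MMP14, the membrane-bound collagenase, was at 8.48, 9.0 and 8.69 against 6.91, 6.56 and 6.40, a rise of 2.10 ± 0.17 (limma adjusted p = 0.000897). Both plasminogen activators rose, urokinase (PLAU) by 1.82 ± 0.24 and the tissue type (PLAT) by 1.50 ± 0.21, as did ADAM12 (1.33 ± 0.13). MMP7 was at 7.96, 6.36 and 7.37 against 4.66, 4.45 and 4.55, so that the LKB1 arrays differed by over 1 unit among themselves while the K78I arrays were even. The count of 12 became 6 without K78I replicate 3 and 7 without LKB1 replicate 1.

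**Figure D3:**
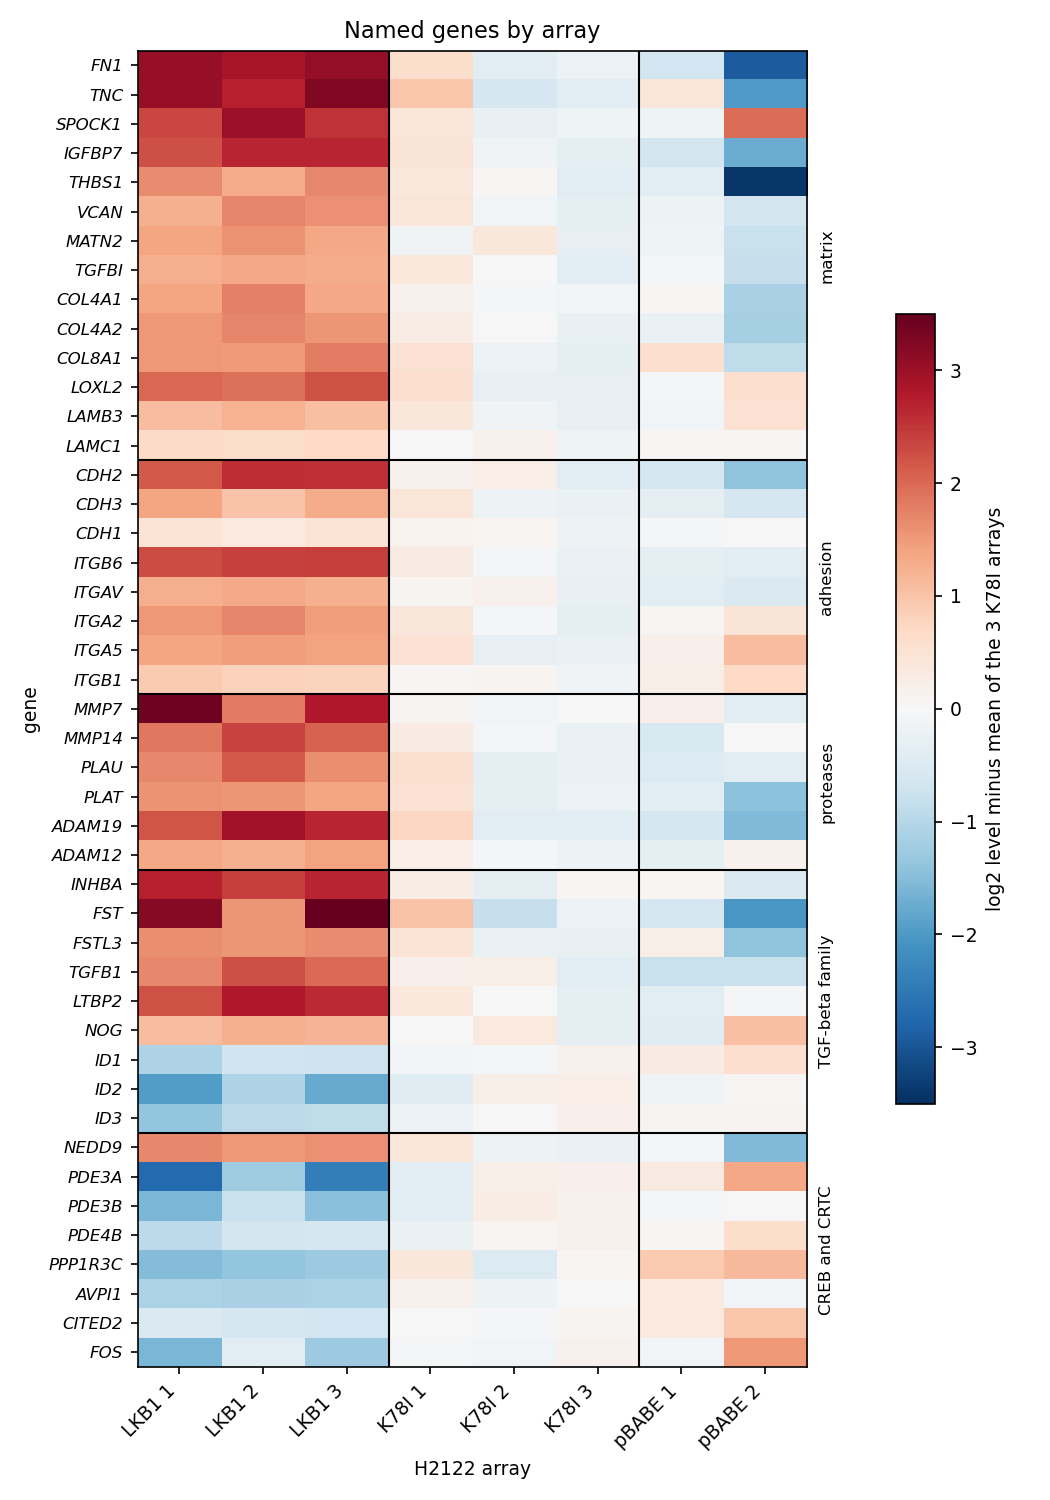
Level of 45 named genes (rows, by group) on the 8 H2122 arrays (columns), coloured by the log2 difference from the mean of the 3 K78I arrays (red higher, blue lower). Matrix, adhesion and protease genes are red on the 3 LKB1 arrays, ID1, ID2 and ID3 and most CREB and CRTC genes are blue there, and pBABE replicate 2 departs from pBABE replicate 1 in FN1, THBS1, FST and SPOCK1.

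Activin, TGF-beta and BMP genes were called in 19 of 45 cases, 15 higher and 4 lower. The ligands INHBA and TGFB1 were among those that rose. INHBA was at 7.51, 7.22 and 7.45 against 5.05, 4.48 and 4.84 (limma adjusted p = 0.000409), and TGFB1 at 7.53, 8.10 and 7.85 against 6.03, 6.07 and 5.48, a rise of 1.97 ± 0.19 (limma adjusted p = 0.00148). LTBP2, a latent TGF-beta binding protein family member, rose by 2.54 ± 0.20, FSTL3, an activin-binding follistatin relative, by 1.61 ± 0.19 and NOG, the BMP antagonist noggin, by 1.17 ± 0.17. BMPR2, a BMP receptor, rose by 1.04 ± 0.16.

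The 4 that fell were 3 ID genes, classic targets of BMP signalling, and the co-receptor TGFBR3. ID1 was at 9.88, 10.24 and 10.21 against 10.84, 10.89 and 11.10 (-0.83 ± 0.13) and ID3 at 7.32, 7.79 and 7.82 against 8.51, 8.72 and 8.89 (-1.06 ± 0.16). ID2 was the lowest on LKB1 replicate 1, at 6.39, with 7.27 and 6.59 on the other LKB1 arrays and 7.92 to 8.59 with K78I. The ID genes kept their calls in all 6 fits that left out 1 array. TGFBR3 (-0.69 ± 0.13), named after its values were seen, lost its call without K78I replicate 3 (0.079) or LKB1 replicate 3 (0.0661).

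Some genes of other secreted signals and their receptors also rose. Of 33 Wnt pathway genes 7 were higher and 0 lower (median 0.21). WNT7A was at 7.45, 8.37 and 8.21 against 5.67, 5.61 and 5.27 (2.50 ± 0.23, limma adjusted p = 0.0013), WNT4 rose by 1.61 ± 0.12 and the receptor ROR1 by 1.41 ± 0.20. Of 39 neuronal adhesion and guidance genes 11 were higher and 0 lower (median 0.13), among them the secreted guidance factors SEMA3C (1.46 ± 0.12) and SLIT3 (1.37 ± 0.18) and the semaphorin receptor PLXNA2 (0.84 ± 0.12). The adhesion proteins CNTN1 and MDGA1 of the same list rose by 0.98 ± 0.16 and 0.88 ± 0.14. Of 32 MAPK feedback and EGF family genes 3 were higher and 3 lower, and of 20 genes of the IGF and insulin axis 3 were higher and 0 lower. In the EGF family neuregulin 1, NRG1, was at 9.06, 8.75 and 9.63 against 7.25, 7.54 and 6.95 (1.90 ± 0.23, limma adjusted p = 0.00328) and EGFR rose by 0.86 ± 0.14, while MYC fell by 0.59 ± 0.10. EGFR lost its call without LKB1 replicate 3 (0.0512), and MYC without LKB1 replicate 3 (0.0537) or K78I replicate 3 (0.0622). Without K78I replicate 3 the counts were 3 for Wnt and 7 for guidance genes, and without LKB1 replicate 3 the Wnt count was 4. The 6 calls of the MAPK and EGF list became 1 without LKB1 replicate 3, 2 without K78I replicate 3 and 3 without LKB1 replicate 1, and the 3 IGF calls became 1 without LKB1 or K78I replicate 3.

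Among LKB1's own partners and substrate kinases the largest differences were those of the NUAK family. Of 23 genes 4 were higher and 0 lower, and the median was -0.01. NUAK1 was at 7.99, 8.69 and 8.66 against 6.56, 6.22 and 6.23, a rise of 2.11 ± 0.20 or 4.32-fold (limma adjusted p = 0.0013). NUAK2 was at 8.06, 8.36 and 8.15 against 6.70, 6.64 and 6.29, a rise of 1.65 ± 0.14 (limma adjusted p = 0.000918). Both kept their calls in all 6 fits that left out 1 array. MARK1 (0.43 ± 0.10) and the AMPK beta subunit PRKAB2 (0.44 ± 0.11) were higher by less than 0.5, and the first held its call only without K78I replicate 2 (up to 0.131, without K78I replicate 3) and the second in none of the 6 fits (up to 0.171, without K78I replicate 3). The count was 2 in each of these fits but that without K78I replicate 2, where it was 3.

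CREB and CRTC target genes were lower with wild-type LKB1 more often than they were higher. The list also holds factors of the pathway, such as CRTC3. Of its 36 genes 10 were lower and 1 higher, with a median of -0.29. AVPI1, a vasopressin-induced gene, was the most even, at 9.13, 9.09 and 9.11 against 10.38, 10.06 and 10.24 (-1.12 ± 0.11, limma adjusted p = 0.00144). Of the phosphodiesterases, which degrade cAMP, PDE3A fell by 2.13 ± 0.35, PDE3B by 1.28 ± 0.24 and PDE4B by 0.71 ± 0.14. CITED2, a coregulator of CBP, fell by 0.59 ± 0.10 and the nuclear receptor NR4A3 by 0.45 ± 0.11. FOS, named after its values were seen, was at 5.07, 6.29 and 5.38 against 6.61, 6.56 and 6.83 (-1.09 ± 0.27). NEDD9, a docking protein of cell adhesion and a described CRTC1 target, went against the rest, at 10.01, 9.87 and 9.95 against 8.76, 8.15 and 8.09 (1.61 ± 0.17, limma adjusted p = 0.0023).

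Many of the CREB and CRTC calls were lost in fits that left out 1 array. AVPI1, PPP1R3C and NEDD9 kept theirs in all 6 fits that left out 1 array. CITED2 lost its call without K78I replicate 3 (0.0517) or LKB1 replicate 3 (0.0515), PDE4B without K78I replicate 2 (0.0548) or 3 (0.0775), and PDE3B without either of those (up to 0.0752) or LKB1 replicate 3. NR4A3 was called only without K78I replicate 1 (otherwise up to 0.14) and FOS only without LKB1 replicate 2 (otherwise up to 0.16). Of the list's 11 calls 3 were left without K78I replicate 3, 5 without LKB1 replicate 3, 6 without K78I replicate 2 and 7 without LKB1 replicate 1. On LKB1 replicate 2 the mean of the list was -0.05 relative to its mean over the 6 arrays, beside -0.37 and -0.26 on the other LKB1 arrays and 0.16 to 0.34 with K78I. The empty-vector arrays stood at 0.47 and 0.93 on the same scale.

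The promoters of 3 of the lower CREB and CRTC genes are shown because they hold the element that CREB binds or its core. The full cAMP response element is TGACGTCA and its core TGACG, both searched on either strand from 250 bases before to 50 bases after the annotated start, and the capitals mark each match. The sequences are RefSeq's on GRCh38.p14, 5′ to 3′ along the gene's strand. AVPI1 lies on the minus strand of chromosome 10, at 97687192 to 97687491, and its window held a full element at -242. FOS lies on the plus strand of chromosome 14, at 75278578 to 75278877, with a core site at -64. NR4A3 lies on the plus strand of chromosome 9, at 99821635 to 99821934, with 4 core sites, the nearest at -25.
AVPI1: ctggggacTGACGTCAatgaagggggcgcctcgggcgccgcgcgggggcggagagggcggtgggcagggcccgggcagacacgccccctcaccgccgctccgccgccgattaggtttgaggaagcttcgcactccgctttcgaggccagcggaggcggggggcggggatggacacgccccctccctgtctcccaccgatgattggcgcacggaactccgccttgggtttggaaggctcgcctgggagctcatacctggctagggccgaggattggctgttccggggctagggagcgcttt
FOS: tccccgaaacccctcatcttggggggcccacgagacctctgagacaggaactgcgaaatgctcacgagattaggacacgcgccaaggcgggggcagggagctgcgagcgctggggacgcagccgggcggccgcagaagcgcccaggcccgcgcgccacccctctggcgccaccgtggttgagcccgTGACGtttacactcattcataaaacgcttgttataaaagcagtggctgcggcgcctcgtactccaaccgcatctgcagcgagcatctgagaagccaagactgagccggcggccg
NR4A3: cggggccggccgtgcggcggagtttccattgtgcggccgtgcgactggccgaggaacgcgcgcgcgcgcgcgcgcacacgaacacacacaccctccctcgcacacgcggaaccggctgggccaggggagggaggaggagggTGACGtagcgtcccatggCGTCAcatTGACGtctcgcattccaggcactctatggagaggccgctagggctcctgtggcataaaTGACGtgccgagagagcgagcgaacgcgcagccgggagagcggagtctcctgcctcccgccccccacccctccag

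Over the list the core site did not mark the genes that fell. It was found in 3 of the 8 lower genes with a promoter in the table and in 11 of the 22 other members. Over all genes with a promoter in the table (13864) the core site was in 29.77%, in 25.51% of the 792 called higher and in 35.73% of the 543 called lower. The full element, every copy of which holds core sites, was in 2.67% of all, 2.02% of the higher and 4.6% of the lower. The AP-1 element TGANTCA was in 5.58% of all promoters, 6.82% of the higher and 2.03% of the lower. TEAD's GGAATG was in 11.7%, 12.37% and 9.39%, and the E-box CACCTG bound by SNAI and ZEB factors in 19.42%, 17.55% and 24.68%. These shares describe letters in a 300-base window and were not tested.

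Of 30 YAP and TEAD factors and targets 12 were higher and 2 lower (median 0.45). The phosphatase PTPN14 rose by 0.99 ± 0.11 and NT5E, the ectonucleotidase CD73, was at 10.54, 10.65 and 10.69 against 9.46, 8.24 and 8.13 (2.02 ± 0.31, limma adjusted p = 0.00716). NUAK2 is also on this list. The transcription factor TEAD4 was 0.58 ± 0.11 lower and lost that call without K78I replicate 3 (0.0832). The 14 calls became 3 without K78I replicate 3, 4 without LKB1 replicate 3, 6 without K78I replicate 2 and 8 without LKB1 replicate 1.

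Genes of class I antigen presentation were higher in 9 of 19 cases and lower in 0 (median 0.36). B2M, the light chain of class I molecules, was at 10.04, 10.32 and 10.08 against 9.16, 9.37 and 9.47 (0.82 ± 0.12, limma adjusted p = 0.00661). The peptide transporter TAP1 rose by 0.75 ± 0.10, its partner TAPBP by 0.74 ± 0.09, the peptidase ERAP2 by 0.97 ± 0.11 and the immunoproteasome subunit PSMB9 by 0.71 ± 0.11. Some of the 9 are heavy-chain genes. These share much of their sequence, so their separate values are uncertain and are not given. The count of 9 may therefore hold the same signal more than once. Without K78I replicate 3 the count was 5.

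Interferon-stimulated genes moved less uniformly, with 6 of 35 higher, 1 lower and a median of 0.06. SAMD9L rose by 1.34 ± 0.16, whereas OAS1, an antiviral synthetase, was at 7.67, 7.83 and 7.68 against 8.52, 8.50 and 9.02 (-0.95 ± 0.15, limma adjusted p = 0.00842). The count of 7 became 2 without LKB1 replicate 3, 3 without K78I replicate 3 or LKB1 replicate 1 and 4 without K78I replicate 1. Of 14 genes of STING and RNA sensing 1 was higher (7.1%, beside 5.47% of all genes). It was the RNA receptor TLR3 (0.65 ± 0.14), which lost its call without LKB1 replicate 1 or 3 or K78I replicate 2 or 3 (up to 0.0891). Of 34 NF-kB target, cytokine and checkpoint ligand genes 11 were higher and 0 lower (median 0.44). The chemokine CCL2 was at 7.03, 6.89 and 7.77 against 5.57, 5.28 and 5.05 (1.92 ± 0.23, limma adjusted p = 0.00323). The cytokine IL32 rose by 1.67 ± 0.23, the macrophage growth factor CSF1 by 0.79 ± 0.12 and TNF by 0.68 ± 0.11. That count was 5 without LKB1 replicate 3, 6 without K78I replicate 3 and 7 without LKB1 replicate 1 or K78I replicate 2.

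Lists of growth and metabolism had medians below 0 and no member called higher. The shares called lower were 8.3% (cell cycle), 10.7% (oxidative phosphorylation) and 10.5% (ribosomal proteins), beside 3.74% of all genes. Of 36 cell cycle genes 0 were higher and 3 lower (median -0.24): E2F2, an S-phase transcription factor, by 0.87 ± 0.12, the cyclin CCND3 by 0.53 ± 0.11 and the ribonucleotide reductase subunit RRM2 by 0.45 ± 0.12. E2F2 kept its call in all 6 fits that left out 1 array, CCND3 lost it without K78I replicate 3 or LKB1 replicate 1 or 3 (up to 0.0869) and RRM2 in all 6 (up to 0.123, without K78I replicate 2). Relative to its mean over the 6 arrays the list's mean was -0.05, -0.24 and -0.04 with LKB1 and 0.09, 0.10 and 0.13 with K78I, so that LKB1 replicate 2 was the lowest. The same mean was 0.15 and -1.44 on the pBABE arrays, where replicate 2 stood far apart. Of 28 oxidative phosphorylation genes 1 had a difference above 0 (median -0.24) and 3 were called lower, PPARGC1B (-0.51 ± 0.11), NDUFS3 (-0.41 ± 0.09) and CYC1 (-0.46 ± 0.12), and of 19 ribosomal protein genes 0 had a difference above 0 (median -0.14) and 2 were called lower, RPL13 (-0.46 ± 0.10) and RPS23 (-0.39 ± 0.10). None of these 5 was called without K78I replicate 3 (adjusted p of 0.0954 to 0.176), nor without K78I replicate 2 or LKB1 replicate 1 or 3. Some settings called more: 11 oxidative phosphorylation genes were lower with array weights or with a trended robust prior, and 5 ribosomal protein genes with the latter. The cell cycle list had 7 lower genes with that prior, and 9 lower and 1 higher with array weights.

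Stress and nutrient lists were mixed. Over all genes 5.47% were called higher and 3.74% lower. The shares of lower hypoxia and glycolysis genes (3.3%), lower NRF2 targets (4.2%) and higher sterol and fatty acid synthesis genes (4.3%) were near these. Of 27 ATF4 and serine synthesis genes 5 were lower and 1 higher (median -0.19). NUPR1, a stress-induced chromatin protein, fell by 0.78 ± 0.10 and the lipoprotein receptor VLDLR rose by 0.81 ± 0.12. The 6 calls became 2 without K78I replicate 2 or 3 and 3 without LKB1 replicate 2 or 3. Of 21 p53 targets 5 were higher and 1 lower (median 0.06). The death receptor FAS rose by 0.63 ± 0.10 and the p53 ligase MDM2 was 0.39 ± 0.09 lower, a call lost in all 6 fits (up to 0.121, without K78I replicate 3). The 6 p53 calls became 1 without LKB1 replicate 3, 2 without K78I replicate 3 and 3 without K78I replicate 2. Of 30 hypoxia and glycolysis genes 3 were higher and 1 lower. PFKFB4, a regulator of glycolysis, rose by 1.27 ± 0.15. Hexokinase HK2 was 0.65 ± 0.13 lower, a call lost without K78I replicate 3 or any of the LKB1 arrays (up to 0.0716). Those 4 calls became 1 without K78I replicate 3 or LKB1 replicate 3 and 2 without K78I replicate 2 or LKB1 replicate 1. Among 23 sterol and fatty acid synthesis genes the desaturase FADS2 rose (0.71 ± 0.10) and 0 fell, and among 24 NRF2 targets GCLC, of glutathione synthesis, was lower (-0.77 ± 0.17), with its call lost in all but the fit without K78I replicate 1 (up to 0.111). Of 26 lysosome and autophagy genes 6 were higher and 0 lower (median 0.20), among them the cholesterol carrier NPC2 (1.32 ± 0.15), the cathepsins CTSB (0.96 ± 0.12) and CTSS (1.40 ± 0.24) and WIPI1 (0.85 ± 0.12), which acts in autophagosome formation.

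Mucin and secretory genes were called lower more often than higher. Of 28 members 7 were lower (25.0%, beside 3.74% of all genes) and 2 higher (7.1%, beside 5.47%), with a median of -0.20. Beside TSPAN8 and MUCL1, the membrane mucin MUC13 was at 6.79, 6.62 and 6.96 against 7.47, 7.91 and 8.26 (-1.09 ± 0.19, limma adjusted p = 0.012). The 9 calls became 3 without LKB1 replicate 3, 4 without LKB1 replicate 1 and 5 without K78I replicate 2 or 3. Of 19 lung and endoderm lineage factors 0 were higher and 2 lower, HHEX (-0.52 ± 0.11) and FOXA1 (-0.40 ± 0.10), both of which lost their calls without K78I replicate 3 or any 1 of the LKB1 arrays (up to 0.183), FOXA1 also without K78I replicate 1. Of 21 squamous and basal genes 2 were higher (9.5%, beside 5.47% of all genes) and 0 lower. S100A2, a calcium-binding protein of basal cells, was at 8.12, 7.58 and 8.03 against 6.61, 5.16 and 5.40 (2.19 ± 0.34, limma adjusted p = 0.00791), and PERP, a desmosomal protein, rose by 0.60 ± 0.09. The squamous count was 5 without K78I replicate 1 and 4 without LKB1 replicate 2.

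**Figure D4:**
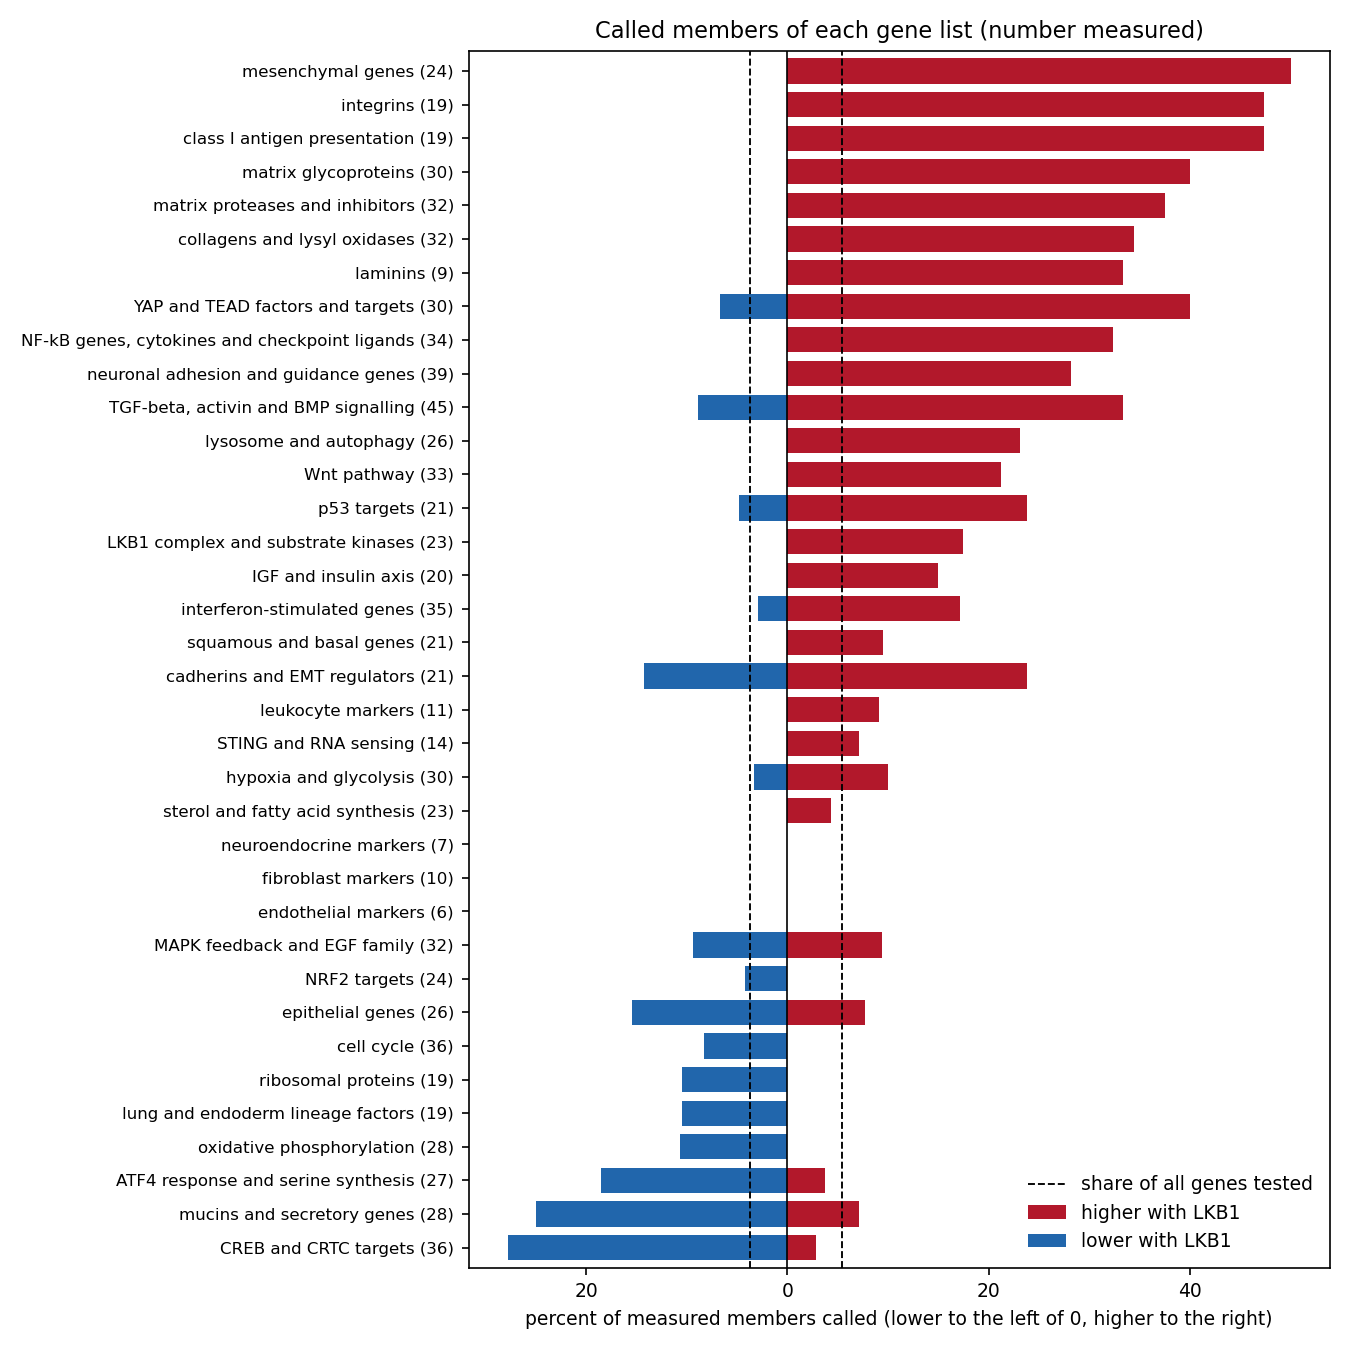
Share of each list's measured members (number in brackets) called higher with LKB1 (red, to the right of 0) or lower (blue, to the left), in percent, with dashed lines at the shares over all genes, 5.47% and 3.74%. Mesenchymal genes reach 50% higher, integrins and class I antigen presentation 47.4%, and CREB and CRTC targets 27.8% lower.

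The same contrast was measured in A549 on arrays that the H2122 comparison does not share. STK11 there stood at 9.42, 10.23 and 9.62 with LKB1 and at 10.54, 7.14 and 10.42 on the arrays labelled K78I, so that the library labelled A549 K78I replicate 2 went against its label. In a fit over the 12 arrays of both lines, 1119 genes (6.23%) were called between LKB1 and K78I in A549. That fit took each gene's spread from both lines, so the A549 and H2122 calls are not independent. A direction shared by both lines was seen in 279 genes, 230 higher and 49 lower, which are 16.9% of the 1655 H2122 calls and 24.9% of the A549 calls, and 28 were called in opposite directions. Of the 983 genes higher in H2122, 72.8% were above 0 in A549, beside 48.5% of all genes. Of the 672 lower genes 60.6% were below 0, beside 51.5% of all.

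The difference between the lines was called in 326 genes (1.82%), 187 of them with a higher LKB1 effect in H2122 and 139 with a lower one. The count was 1069 without A549 K78I replicate 1 and 517 without A549 K78I replicate 2, the array at odds with its label. It was between 137 and 211 without A549 LKB1 replicate 2 or 3, H2122 LKB1 replicate 1 or 3 or H2122 K78I replicate 2 or 3, and 44 without the 2 H2122 arrays of conflicting source name. TMEM45A differed by 0.20 in A549 and CDH2 by 0.46, and for both the difference between lines was called (limma adjusted p = 5.75e-05 and 0.00382). FN1 differed by 1.08 in A549, and its difference between lines (limma adjusted p = 0.0468) was lost in 8 of the 12 fits that left out 1 array, with adjusted p up to 0.13, which is the value without H2122 K78I replicate 3. INHBA (-0.48 in A549), MMP14 (-0.43) and WNT7A (0.04) were also called different between the lines, at adjusted p of 0.000457, 0.000553 and 0.00401 in limma.

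Several of the largest H2122 effects were of like size in A549. TSPAN2 differed by 2.59 in H2122 and 2.61 in A549, ADAM19 by 2.60 and 2.96, ITGB6 by 2.37 and 2.93 and FBXO32 by 2.77 and 1.98. IGFBP7 (2.54 and 4.01), SPOCK1 (2.62 and 3.73) and PDE3A (-2.13 and -3.24) had the same direction in both and no called difference between lines. The genes with the largest called differences between lines were mostly those that changed in A549 and not in H2122. SPARC differed by 6.22 in A549 and -0.02 in H2122, COL1A1 by 3.98 and 0.04, and NTS, the neuropeptide neurotensin, by -5.17 and -0.07. VSIG1, an immunoglobulin-family membrane protein, was called in opposite directions, at 1.75 ± 0.22 in H2122 and -3.02 in A549. FST was 2.82 higher in H2122 and -1.76 in A549, and that A549 value did not pass (limma adjusted p = 0.0739).

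**Figure D5:**
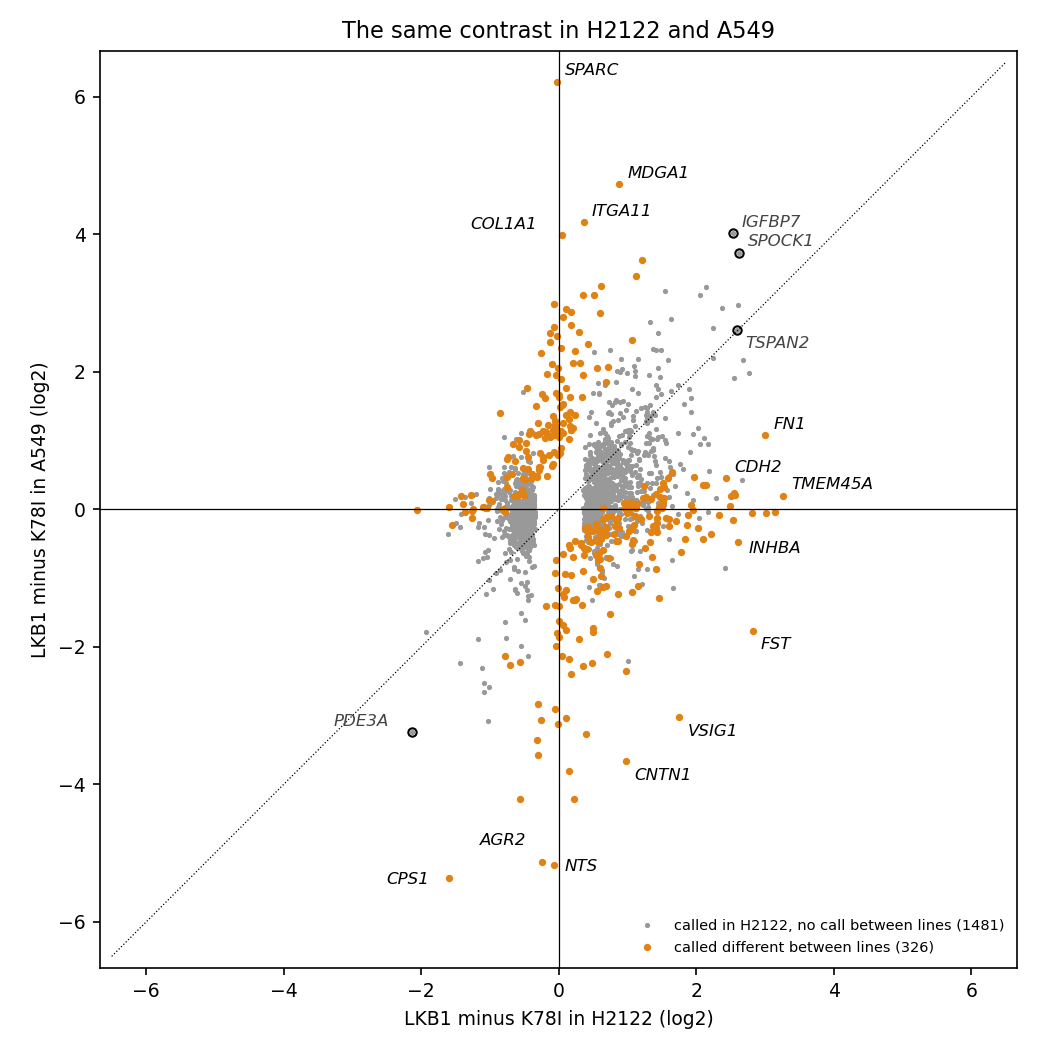
LKB1 minus K78I in H2122 (x axis) and in A549 (y axis), both on the log2 scale, for 326 genes called different between lines (orange) and 1481 other genes called in H2122 (grey); the dotted diagonal marks equal differences and circles mark named genes with no call between lines. TSPAN2 lies on the diagonal, SPARC, COL1A1 and NTS lie near 0 in H2122, and TMEM45A and CDH2 lie near 0 in A549.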

How the data were processed

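Deposited log2 levels per transcript cluster were produced by the authors with RMA (Affymetrix Expression Console 1.1), as the submitters' processing notes state. RMA equalises the distributions of arrays, so a shift of most genes in 1 direction is invisible, and dim levels may be background. No build is named for the values. Of 33297 probe sets, 19181 carried exactly 1 symbol in the platform's annotation, while 2055 carried several and 12061 stayed unnamed. Where a gene had several (895 genes), its brightest probe set over all arrays was taken, giving 17958 genes.

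LKB1 was compared with K78I by limma 3.58.1 (R 4.3.3; lmFit, eBayes) on the 6 H2122 arrays, grouped by title, with Benjamini-Hochberg adjustment over every gene; calls had an adjusted p under 0.05. This fit had 4 residual degrees of freedom and a prior of 4.48. The difference between lines came from the 12 LKB1 and K78I arrays of H2122 and A549 (8 residual degrees of freedom, prior 3.95). STK11 was also tested by exact permutation. Of 968 entries in 36 gene lists 889 matched a tested gene. The members and lists were chosen with earlier results of these data known, and lists are described by counts and medians only. The text names STK11, the 3 markers, the 15 largest called rises and falls without overlap between groups, genes from the 8 called members of each list ranked first by adjusted p, and called line differences (5 at either end).

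With shifts simulated on the 17958 genes for this comparison, limma called 29.9% of 67 genes moved by 0.5, 80.6% of 67 moved by 1 and 98.5% of 66 moved by 2. Of 150 calls 7.33% were false, and 0 were made without shifts. With fewer calls than the 1655 in the data, the simulation's cutoff was stricter, so these shares do not carry over directly. Alternatives were leaving out each array, a replicate block, groups from the source name, leaving out the 2 arrays in conflict, all 8 H2122 or all 17 arrays, array weights, a trended robust prior, median centring, quantile normalization, removal of the dimmest 30%, averaging of probe sets and a test of every probe set. Promoters are RefSeq's, and figures were drawn with matplotlib 3.10.9.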

Additional observations from a re-analysis of the deposited data

Results flagged for a closer look

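The effect of wild-type LKB1 against K78I differed between H2122 and A549 in 326 genes by the test of that difference (limma over 12 arrays, Benjamini-Hochberg adjusted). Each value here is the H2122 difference minus the A549 difference on the log2 scale. Without the A549 array labelled K78I replicate 2, whose STK11 level is at odds with its label, each of the 13 genes given here kept its call. The 5 highest were NTS, a neuropeptide (5.10), AGR2, a secretory disulfide isomerase (4.89), VSIG1 (4.77), CNTN1 (4.64) and FST (4.58). The 5 lowest were SPARC (-6.24), COL1A1 (-3.94), MDGA1 (-3.84), ITGA11, a collagen-binding integrin subunit (-3.81), and FAT3, an atypical cadherin (-3.05). AGR2 was at 8.98 to 9.04 with LKB1 and 9.0 to 9.70 with K78I in H2122 and fell by 5.13 in A549. ITGA11 differed by 0.36 in H2122, where it did not pass (limma adjusted p = 0.0548), and by 4.17 in A549. The markers TMEM45A (3.06), CDH2 (1.97) and FN1 (1.92) also differed between lines. Without the 2 H2122 arrays of conflicting source name, FST, FN1 and AGR2 lost their calls, at limma adjusted p of 0.0877, 0.267 and 0.0607, and AGR2 also lost it with a replicate block (0.0513).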

How the results depend on the processing

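The 1655 calls between LKB1 and K78I in H2122 numbered 512 to 1514 when 1 array was left out. They numbered 666 with all 8 H2122 arrays in the fit, 698 with all 17 arrays, 3595 with array weights, 69 without the 2 arrays of conflicting source name, 1004 when each of 33297 probe sets was tested, and 0 with groups from the source name; the cause of these shifts was not tested. Of 142 called genes named in the text, 126 kept the call under array weights, both normalizations, averaged probe sets, the replicate block, the trended robust prior and, where tested, without dim genes. The 326 differences between lines numbered 137 to 1069 with 1 of the 12 arrays left out, 194 with a replicate block and 44 without the 2 arrays in conflict. The exact test of STK11 cannot go below 0.1, so its lack of a call was fixed in advance. Its difference lay between -0.0518 (without LKB1 replicate 2) and 0.0237 (without LKB1 replicate 1) in the settings tried.

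With groups from the source name these named genes reversed: FN1 (-0.10), FST (-0.40), THBS1 (-0.85), COL8A1 (-0.0016), CALD1 (-0.0497), SNAI2 (-0.66), FSTL3 (-0.0439), SLIT3 (-0.0028), PLXNA2 (-0.13), NRG1 (-0.65), EGFR (-0.0154), MDGA1 (-0.37), NEDD9 (-0.0627), PSMB9 (-0.023), CSF1 (-0.12) and FADS2 (-0.0544) were lower, while PDE3A (0.002), CPS1 (0.20), STC1 (0.36), MUC15 (0.50), SMOC1 (0.52), MUCL1 (0.37), ESRP2 (0.0072), CITED2 (0.20), FOS (0.33), OAS1 (0.25), NUPR1 (0.34) and MUC1 (0.33) were higher. That grouping puts LKB1 replicate 3 with K78I and pBABE replicate 2 with LKB1. STK11 was at 6.22 on pBABE replicate 2, the level of empty vector, beside 11.20 and 11.35 on LKB1 replicates 1 and 2.

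A replicate block gave 2091 calls in H2122. Same-numbered LKB1 and K78I arrays had deviations that correlated at 0.28, 0.29 and 0.06, each the highest of its LKB1 array, but the labels do not say that a number marks a shared culture or day. With 3 arrays a group, a simulated shift of 0.5 was called in 29.9% of the shifted genes. The simulation made 150 calls beside 1655 in the data, so its cutoff was stricter. That share therefore does not carry over directly, and differences below 0.5, such as those of MARK1 and MDM2, were called in the data.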
